A study of Mus musculus with 6 samples.

Results

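The 10 genes described here encode the cyclins, cyclin-dependent kinases and kinase inhibitors that govern passage from G1 into S phase. They are the D cyclins Ccnd1, Ccnd2 and Ccnd3, their kinases Cdk4 and Cdk6, the E cyclins Ccne1 and Ccne2, and the inhibitors Cdkn1a, Cdkn1b and Cdkn2c. They were chosen by name from the 27458 genes of the deposited table, with no threshold on their values, and all 10 passed the filter on low values that left 11636 genes for testing. RNA was measured in bone marrow macrophages, primary cells from mouse marrow treated with macrophage colony-stimulating factor (M-CSF). The knockout (KO) group holds 3 libraries from RKIP-/- mice and the wild-type (WT) group 3 libraries from RKIP+/+ mice, and M-CSF is common to both. RKIP, encoded by Pebp1, is known as an inhibitor of Raf kinases, and the study asked how it bears on macrophage differentiation. The labels describe the deletion no further than this genotype, and they do not state whether each library stands for a separate mouse or culture. The p-values below therefore cover the spread among these libraries, part of which may be technical.

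In the textbook account, a growth factor such as M-CSF raises the D cyclins, which bind Cdk4 or Cdk6 and begin the phosphorylation of the retinoblastoma protein. That releases E2F factors, which switch on the E cyclins and the genes of DNA replication, and cyclin E with Cdk2 completes the step. The Cip/Kip inhibitors p21 (Cdkn1a) and p27 (Cdkn1b) block cyclin E with Cdk2, whereas the INK4 inhibitor p18 (Cdkn2c) binds Cdk4 and Cdk6. Macrophages grown in M-CSF divide until they withdraw from the cycle as they mature.

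The libraries matched their labels at the deleted gene. Pebp1 had an estimated count of 0 in all 3 KO libraries, against 3560 to 4311 in the WT libraries, at least 413-fold lower when a floor of 12 counts, or 3 sequenced fragments, per KO library is used. Total estimated counts ran from 63607276 to 70059042 in KO and from 53188659 to 55255365 in WT. All 12 macrophage markers were above the filter in both genotypes, with summed levels of 19232 to 19511 FPKM in KO and 21032 to 22507 FPKM in WT. Most of that sum was Lyz2, and the other 11 markers summed to 2676 to 2778 FPKM in KO and 2366 to 2377 FPKM in WT. Of the 12 markers, 4 rose (33.3%) and 5 fell (41.7%), against 20.3% and 19.4% of all tested genes. After the correction for transcript length and GC content described below, 5 rose and 2 fell, against 16.6% and 14.8% of all tested genes. FPKM is the number of sequenced fragments relative to transcript length and library depth, as the authors computed it. The 10 markers of granulocyte progenitors summed to 0.214 to 0.796 FPKM in KO and 0.403 to 1.02 FPKM in WT. None of these passed the filter. Flt3 and Ms4a3 were at 0 in all KO libraries and averaged only 0.0026 and 0.012 FPKM in WT. The 12 neutrophil markers summed to 16.8 to 17.3 FPKM in KO and 86.5 to 175 FPKM in WT, and 8 of the 9 tested fell. S100a8, S100a9, Retnlg, Ltf, Ngp, Camp and Lcn2 averaged under 1 FPKM in KO and passed the filter only through WT. The count of falls was therefore partly fixed by the filter. Ly6g and Wfdc21 were at 0 in all KO libraries and averaged 0.718 and 0.367 FPKM in WT. The 12 stromal markers summed to 1777 to 1958 FPKM in KO and 1785 to 1927 FPKM in WT, with overlap. Of the 9 tested, 1 rose (Cxcl12, 11.1%) and 2 fell (Pdgfrb and Sparc, 22.2%), against the same 20.3% and 19.4% of all tested genes. Among the stromal markers Col1a1 averaged 459.8 FPKM in KO and 486.3 FPKM in WT. Lymphocyte markers summed to 4.94 to 5.00 FPKM in KO and 3.58 to 4.26 FPKM in WT. Nearly all of that sum was Ebf1, at 4.82 FPKM in KO and 3.54 FPKM in WT on average. Cd3d and Cd3g were at 0 in all KO libraries and averaged only 0.012 and 0.0065 FPKM in WT. Erythroid and megakaryocyte markers summed to 139 to 146 FPKM in KO and 108 to 118 FPKM in WT. Nearly all of that sum was Pf4, at 140.9 FPKM in KO and 112.3 FPKM in WT on average. The globin genes Hba-a1, Hba-a2, Hbb-bs and Hbb-bt were at 0 in all KO libraries and averaged 0.07 to 0.19 FPKM in WT. Klf1 was at 0 in all WT libraries and averaged 0.024 FPKM in KO.

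Promoter stretches are shown for 3 of the members that changed, so that the sequence before each start can be read beside its RNA. Ccne1 and Cdk4 fell and Cdkn1b rose. Each stretch comes from the RefSeq promoter table of GRCm38.p6, which holds 7 of the 10 members, and ends just before the outermost start annotated in GENCODE M21 within the window. Ccne1 is shown for chr7:38107535-38107740 on the minus strand, Cdk4 for chr10:127063285-127063533 on the plus strand and Cdkn1b for chr6:134920151-134920400 on the plus strand. Capitals mark the E-box CACGTG, the GC box GGGCGG and the sequence CCAAT, read on either strand.
Ccne1: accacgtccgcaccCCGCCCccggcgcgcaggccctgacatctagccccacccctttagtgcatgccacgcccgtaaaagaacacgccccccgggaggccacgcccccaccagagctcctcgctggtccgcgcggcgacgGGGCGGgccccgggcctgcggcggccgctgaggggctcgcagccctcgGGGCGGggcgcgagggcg
Cdk4: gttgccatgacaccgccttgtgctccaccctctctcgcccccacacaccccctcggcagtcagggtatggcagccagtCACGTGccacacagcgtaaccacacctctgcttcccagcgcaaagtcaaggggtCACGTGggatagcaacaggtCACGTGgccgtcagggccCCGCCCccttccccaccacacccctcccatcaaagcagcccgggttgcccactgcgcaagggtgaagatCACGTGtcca
Cdkn1b: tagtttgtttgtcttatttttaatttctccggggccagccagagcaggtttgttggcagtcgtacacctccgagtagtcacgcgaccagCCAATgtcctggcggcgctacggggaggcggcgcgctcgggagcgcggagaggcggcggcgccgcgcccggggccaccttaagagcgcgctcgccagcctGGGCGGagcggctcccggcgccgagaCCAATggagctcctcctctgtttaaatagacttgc

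The Cdk4 stretch of 249 bases held 4 E-boxes, the sequence that Myc and Max are known to bind, and 1 GC box. Among all 32851 promoters of the table, 6.02% held at least 1 E-box in the 250 bases before the start and 32.7% a GC box. The Ccne1 stretch of 206 bases, with a GC content of 78.2%, held 3 GC boxes and neither an E-box nor CCAAT. The Cdkn1b stretch of 250 bases held CCAAT on 2 occasions, a sequence found in 33.8% of all promoters, and 1 GC box. The E2F words TTTCCCGC, TTTCGCGC, TTTGCCGC and TTTGGCGC were in none of the windows of the 7 members, and none of the searched words contains another. These matches describe letters in a window and not binding.

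The members moved in both directions. Ccnd2, Cdk6 and Cdkn1b rose in KO, Ccnd1, Cdk4 and Ccne1 fell, and 4 did not pass the test. The test was the quasi-likelihood test of edgeR on the estimated counts, with p-values adjusted over all 11636 genes by the Benjamini-Hochberg method and a threshold of 0.05. By this rule 39.7% of all tested genes were called, 20.3% as higher and 19.4% as lower, and the 6 calls among 10 members are to be read against that background. Of all calls, 51.2% were higher with edgeR and 62.8% with limma on log2(FPKM + 1), which uses the FPKM without further scaling. In FPKM, 5 members had all 3 KO libraries above all 3 WT libraries and 3 members had them all below, against 32.4% and 19.1% of the tested genes, or 51.5% in either direction. The median log2 fold change was -0.06 over the members and -0.01 over all tested genes. Each ± on a log2 fold change is an approximate standard error, the absolute log2 fold change divided by the square root of the F statistic. Fold changes come from the fit with its scaling and so differ a little from ratios of mean FPKM. Gene positions are those of the deposited table, which names no build, and equal those of GENCODE M21 (GRCm38) for all members but Ccnd3 and Cdk6.

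**Figure D1:**
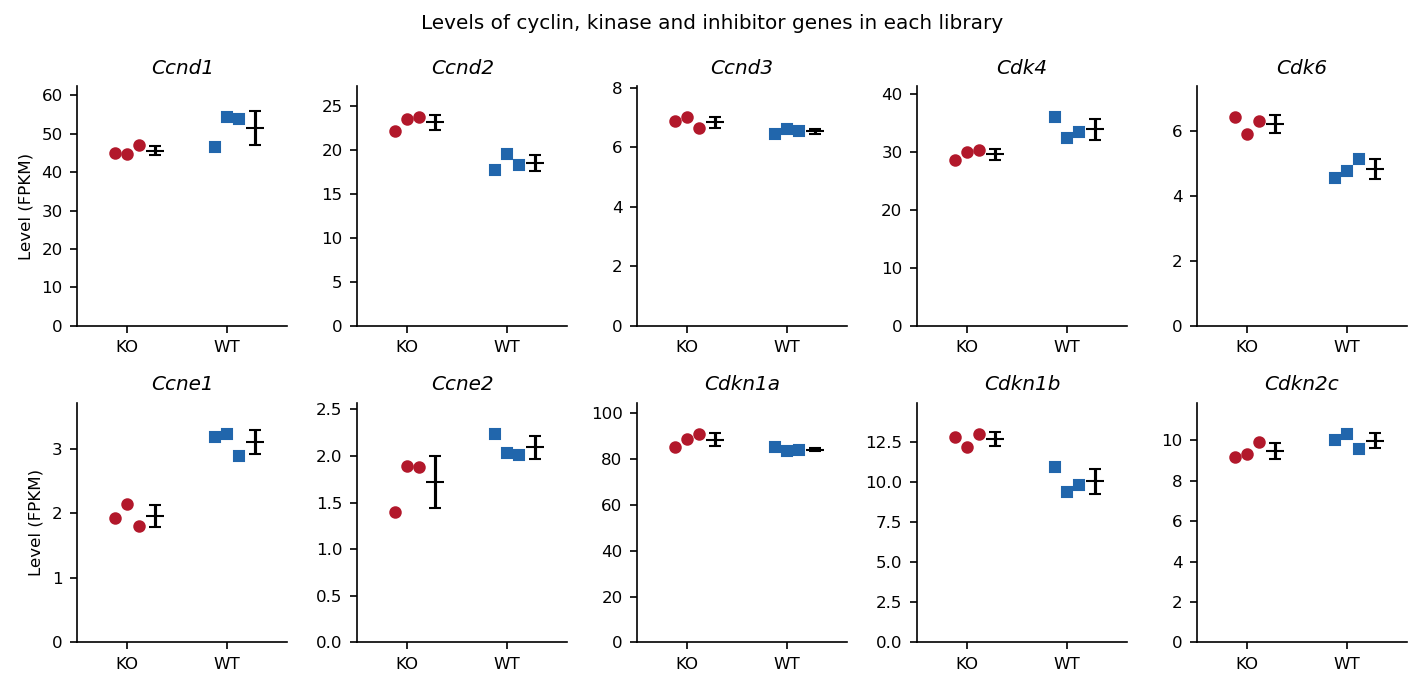
Level of each gene in FPKM (vertical axes from 0, one scale per gene) in the 3 KO libraries (circles) and the 3 WT libraries (squares), with the mean and SD beside the points. Ccnd2, Ccnd3, Cdk6, Cdkn1a and Cdkn1b lie higher in every KO library than in any WT library, those of Ccnd3 and Cdkn1a by a small margin. Cdk4, Ccne1 and Ccne2 lie lower, whereas Ccnd1 and Cdkn2c overlap. Of all tested genes, 51.5% do not overlap in FPKM.

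Among the D cyclins, which sense growth factor signals, Ccnd1 fell, Ccnd2 rose and Ccnd3 did not pass the test. Ccnd1 (chr7:144929931-144939925, minus strand), the most abundant of them, stood at 45.1, 44.7 and 47.0 FPKM in KO libraries 1 to 3 and at 46.4, 54.3 and 53.9 FPKM in WT libraries 1 to 3. WT library 1 lay below KO library 3, so the genotypes overlapped in FPKM, but they were apart after the scaling of the fit. Ccnd1 fell 1.17-fold (log2 fold change -0.23 ± 0.06, edgeR, adjusted p = 0.00890). The call ended in limma on log2(FPKM + 1), at -0.17 (adjusted p = 0.0633).

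Ccnd2 (chr6:127125162-127152193, minus strand) stood at 22.2, 23.5 and 23.7 FPKM in KO and at 17.8, 19.5 and 18.4 FPKM in WT. Every KO library was above every WT library. Ccnd2 rose 1.2-fold (log2 fold change 0.27 ± 0.05, edgeR, adjusted p = 0.000852). Ccnd3 (chr17:47505051-47599689, plus strand) stood at 6.90, 7.01 and 6.65 FPKM in KO and at 6.46, 6.62 and 6.54 FPKM in WT, and its log2 fold change of 0.01 ± 0.04 did not pass (edgeR, adjusted p = 0.842). The KO and WT values of Ccnd3 were apart in FPKM but overlapped after the scaling of the fit.

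The summed level of the D cyclins was 74.2, 75.2 and 77.4 FPKM in KO and 70.7, 80.4 and 78.8 FPKM in WT, with overlap. Within that sum, Ccnd1 took 60.3% ± 0.764 in KO and 67.2% ± 1.38 in WT (SD, n = 3 each), and Ccnd2 took 30.6% ± 0.652 in KO and 24.2% ± 0.935 in WT. The genotypes did not overlap for either share. Ccnd3 took 9.07% ± 0.414 in KO and 8.56% ± 0.507 in WT, with overlap. These shares are descriptions and were not tested.

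The partner kinases moved in opposite directions, although both calls ended with the correction for transcript length and GC content (log2 fold change -0.12, adjusted p = 0.0551 for Cdk4 and 0.03, adjusted p = 0.639 for Cdk6, edgeR). Cdk4 (chr10:127063534-127067920, plus strand) stood at 28.5, 29.9 and 30.3 FPKM in KO and at 35.9, 32.3 and 33.3 FPKM in WT, with no overlap, and it fell 1.19-fold (log2 fold change -0.25 ± 0.05, edgeR, adjusted p = 0.00140). Cdk6 (chr5:3341485-3473180, plus strand), which phosphorylates the same protein, stood at 6.42, 5.91 and 6.30 FPKM in KO and at 4.56, 4.78 and 5.14 FPKM in WT. It rose 1.24-fold (log2 fold change 0.31 ± 0.06, edgeR, adjusted p = 0.00109), again without overlap. Cdk4 remained the more abundant kinase in every library and took 82.6% ± 0.946 of their sum in KO and 87.5% ± 1.11 in WT (SD, n = 3 each). The sum itself was 34.9 to 36.6 FPKM in KO and 37.1 to 40.5 FPKM in WT.

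**Figure D2:**
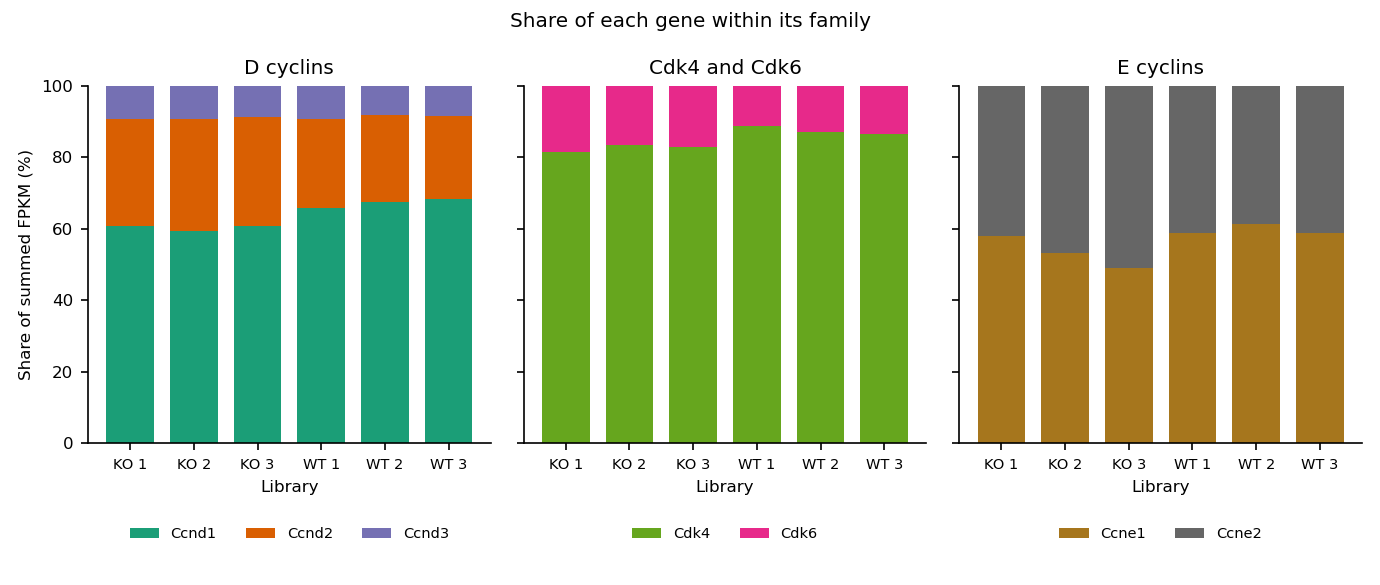
Share of each gene in the summed FPKM of its family (bars stacked to 100%) in KO libraries 1 to 3 and WT libraries 1 to 3. Ccnd2 and Cdk6 take larger shares in all KO libraries than in any WT library, and Ccnd1 and Cdk4 smaller ones.

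The E cyclins were the least abundant members, and Ccne1 had the largest change of the 10. Ccne1 (chr7:38097984-38107534, minus strand) stood at 1.93, 2.14 and 1.80 FPKM in KO and at 3.18, 3.23 and 2.88 FPKM in WT. The highest KO library was below the lowest WT library, and Ccne1 fell 1.65-fold (log2 fold change -0.72 ± 0.12, edgeR, adjusted p = 0.000732). Its estimated counts were 351, 411 and 356 in KO and 528, 524 and 462 in WT. About 4 of these counts stood for 1 sequenced fragment.

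Ccne2 (chr4:11191351-11204779, plus strand) stood at 1.40, 1.89 and 1.88 FPKM in KO and at 2.24, 2.03 and 2.01 FPKM in WT. The genotypes did not overlap, but KO library 1 lay below the other KO libraries, and the log2 fold change of -0.34 ± 0.14 did not pass (edgeR, adjusted p = 0.0709). Together the E cyclins summed to 3.33, 4.03 and 3.68 FPKM in KO and to 5.42, 5.25 and 4.89 FPKM in WT. Ccne1 made up 53.4% ± 4.51 of that sum in KO and 59.7% ± 1.51 in WT (SD, n = 3 each). Cdk2, the kinase that both E cyclins activate, stood at 5.21 FPKM in KO and 4.79 FPKM in WT on average and did not pass the test (edgeR, adjusted p = 0.461).

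Among the inhibitors, Cdkn1b, which encodes p27, rose. Cdkn1b (chr6:134920401-134925513, plus strand) stood at 12.814, 12.201 and 12.995 FPKM in KO and at 10.9, 9.39 and 9.82 FPKM in WT, with every KO library above every WT library. It rose 1.22-fold (log2 fold change 0.28 ± 0.06, edgeR, adjusted p = 0.00339). Cdkn1a (chr17:29090976-29100727, plus strand), the p21 gene and a target of p53, was the most abundant member in each library and exceeded 96.4% of the tested genes in mean FPKM. It stood at 85.3, 88.8 and 90.9 FPKM in KO and at 85.0, 83.5 and 83.6 FPKM in WT, and its log2 fold change of 0.02 ± 0.04 did not pass (edgeR, adjusted p = 0.753). Every KO library of Cdkn1a was above every WT library in FPKM, but the genotypes overlapped after the scaling of the fit. With the length and GC correction Cdkn1a passed as higher, at 0.15 (edgeR, adjusted p = 0.00742).

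Cdkn2c (chr4:109660876-109667189, minus strand) stood at 9.15, 9.32 and 9.93 FPKM in KO and at 10.02, 10.3 and 9.58 FPKM in WT. The genotypes overlapped in FPKM but were apart after the scaling of the fit. The log2 fold change of Cdkn2c, -0.13 ± 0.06, did not pass (edgeR, adjusted p = 0.132). The summed FPKM of the 3 inhibitors was 3.09 ± 0.0206 times that of Cdk4 and Cdk6 in KO and 2.69 ± 0.0826 times in WT (SD, n = 3 each), with no overlap. The KO minus WT difference of that ratio was 0.397 in FPKM and 0.0798 in estimated counts, which are not divided by length. In estimated counts the ratio was 2.12, 2.20 and 2.19 in KO and 2.10, 2.13 and 2.04 in WT, with overlap. Messenger RNA does not give the amount of protein, and p27 in particular is known to be controlled by its degradation.

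The order of the members by FPKM was the same in both genotypes: Cdkn1a, Ccnd1, Cdk4, Ccnd2, Cdkn1b, Cdkn2c, Ccnd3, Cdk6, Ccne1 and Ccne2, from high to low. Neighbours in that order had separate ranges of FPKM over the 3 libraries, with an exception in each genotype. In KO the ranges of Ccne1 and Ccne2 overlapped, and in WT those of Cdkn1b and Cdkn2c. Ccne2, the lowest, exceeded 14.7% of the tested genes in mean FPKM.

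Changes in KO ran along with transcript length. Across all tested genes the median log2 fold change was -0.32 in the shortest decile of genes by longest annotated transcript and 0.20 in the longest decile. The 3 members that rose have long transcripts, at 4552 bases for Cdkn1b, 6330 for Ccnd2 and 11525 for Cdk6, and the median log2 fold changes of their length deciles were 0.07, 0.13 and 0.20. Cdk4 and Ccne1 have short transcripts, at 2053 and 2000 bases, in a decile with a median of -0.11. Ccnd1, at 3740 bases, fell within a decile whose median was 0.04. Ccne2, at 3006 bases, had a log2 fold change of -0.34 in a decile with a median of -0.03.

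**Figure D3:**
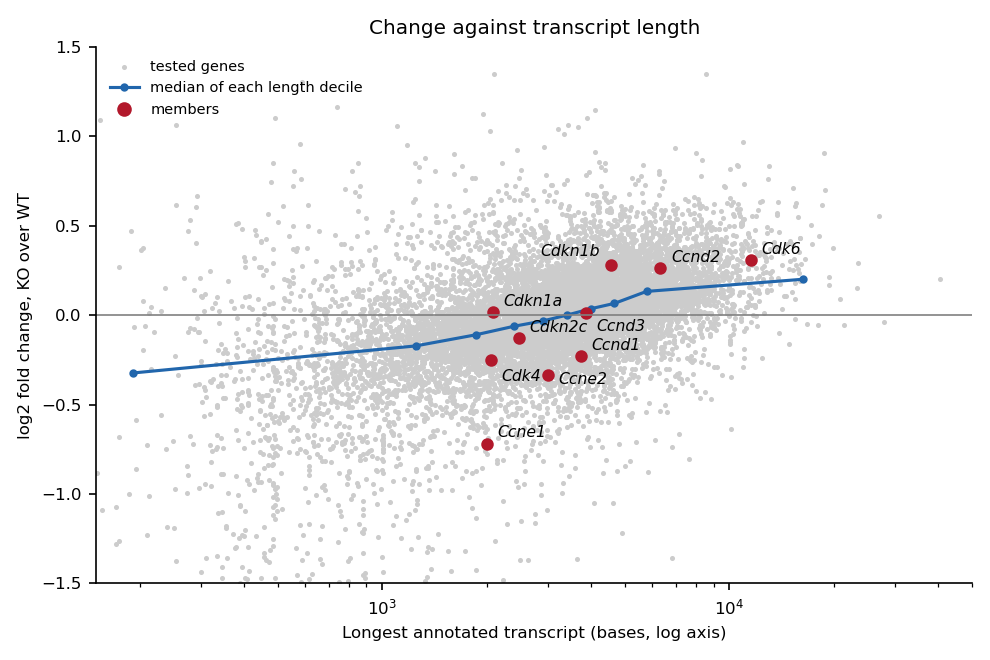
Change of each tested gene (grey, log2 fold change KO over WT, between -1.5 and 1.5) (122 genes lie outside it and 86 outside the length axis) against the length of its longest annotated transcript (log axis), with the median of each length decile as a line and the 10 members as large points. Ccne1, Ccne2 and Ccnd1 lie well below the line, Ccnd3 lies close to it and Cdk6 lies above it.

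When the trend of each library on length and GC content was taken out, 3 members were again higher and 3 lower, but they were not all the same genes. Ccnd2 at 0.13 ± 0.04 and Cdkn1b at 0.16 ± 0.05 stayed higher (edgeR with the correction, adjusted p = 0.0245 and 0.0400). Ccnd1 at -0.22 ± 0.05 and Ccne1 at -0.58 ± 0.12 stayed lower (adjusted p = 0.00992 and 0.00315). The call of Cdk6 ended, at 0.03 ± 0.05 (adjusted p = 0.639), and so did that of Cdk4, at -0.12 ± 0.04 (adjusted p = 0.0551). Ccne2 passed as lower, at -0.53 ± 0.14 (adjusted p = 0.0120), and Cdkn1a as higher, at 0.15 ± 0.04 (adjusted p = 0.00742). With the correction 16.6% of all tested genes were called higher and 14.8% lower, 31.4% in all.

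**Figure D4:**
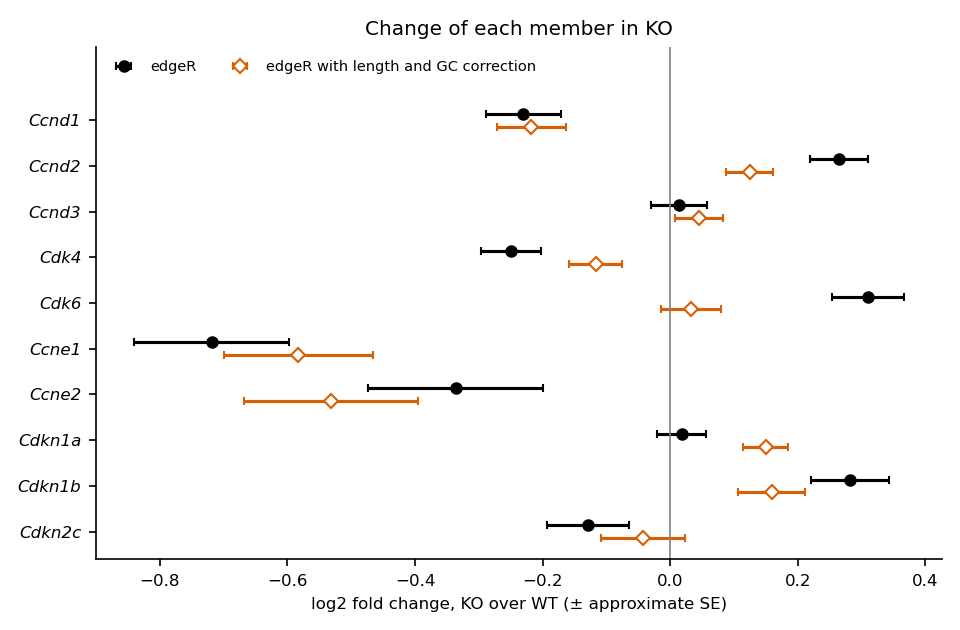
Log2 fold change (KO over WT) of each member with its approximate standard error, from edgeR (filled circles) and from edgeR with the length and GC correction (open diamonds). Ccne1 is lowest in both fits, and Cdk6 moves from 0.31 to 0.03 with the correction.

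Overlapping genes touch some of these values, since it is not given whether the counting used the strand that the library kit preserves. Exons of Tspan31, at 34.3 FPKM in KO and 34.9 FPKM in WT on average, cover 19.7% of the exonic bases of Cdk4 on the opposite strand. Exons of Ints8, at 4.45 FPKM in KO and 4.05 FPKM in WT, cover 17.4% of those of Ccne2, and those of LTO1, at 2.58 FPKM in KO and 2.56 FPKM in WT, cover 23.4% of those of Ccnd1. No exon of another annotated gene overlaps Ccne1, Cdkn1b or Cdkn2c. A pseudogene matches Ccnd3 (Ccnd3-ps, at most 0.033 FPKM on average in either genotype) and another matches Cdk4 (Gm7158), which leaves their share of reads uncertain.

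Genes of DNA replication, which E2F factors are known to induce, were mostly lower in KO. Of 24 tested, 20 fell (83.3%) and 0 rose, against 19.4% and 20.3% of all tested genes. The median log2 fold change was -0.38 against -0.01 over all tested genes. With the length and GC correction 19 fell and 0 rose, against 14.8% and 16.6% of all tested genes. Of the list, 0 genes were higher at an unadjusted edgeR p under 0.05 or by limma or DESeq2. Mcm5 and Mcm3, subunits of the replicative helicase, fell 1.49-fold and 1.43-fold. Mcm5 averaged 8.16 ± 0.141 FPKM in KO and 11.7 ± 0.773 FPKM in WT (SD, n = 3 each), and its adjusted p was 3.1e-05 (edgeR). Gins2, a partner of that helicase, fell to 3.14 ± 0.318 FPKM in KO, against 4.88 ± 0.204 FPKM in WT. In the promoter table, 7 of 22 genes of this list held at least 1 of the E2F words in a promoter, against 2.16% of all 27025 genes. The list was made of genes known as E2F targets, so a high share was built into the choice. Whether E2F factors bear on these falls was not tested.

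Genes of G2 and mitosis followed the same direction. Of 26 tested, 17 fell (65.4%) and 0 rose, against 19.4% and 20.3% of all tested genes, and the median log2 fold change was -0.39. With the correction 22 fell and 0 rose, against 14.8% and 16.6% of all tested genes. Likewise 0 were higher at an unadjusted edgeR p under 0.05 or by limma or DESeq2. Plk1, the polo-like kinase of mitotic entry, fell 1.57-fold to 10.7 ± 0.651 FPKM in KO, against 16.3 ± 0.570 FPKM in WT (SD, n = 3 each, edgeR, adjusted p = 2.87e-05). The checkpoint gene Bub1b fell 1.40-fold and the chromosomal passenger kinase gene Aurkb 1.54-fold. Mki67, a general mark of dividing cells, averaged 20.0 FPKM in KO and 21.6 FPKM in WT and did not pass (edgeR, adjusted p = 0.0917), but with the correction it passed as lower, at -0.40 (adjusted p = 0.000231). Mki67 was named after its value was seen. In bulk RNA, fewer dividing cells and less RNA per dividing cell cannot be told apart. The neutrophil markers were lower in sum in KO alongside these lists. The stromal markers were abundant in both genotypes and overlapped in sum, and the granulocyte progenitor markers were near 0. The part that neutrophil or stromal RNA has in these lists, or in the levels and shares of the members, was not tested.

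**Figure D5:**
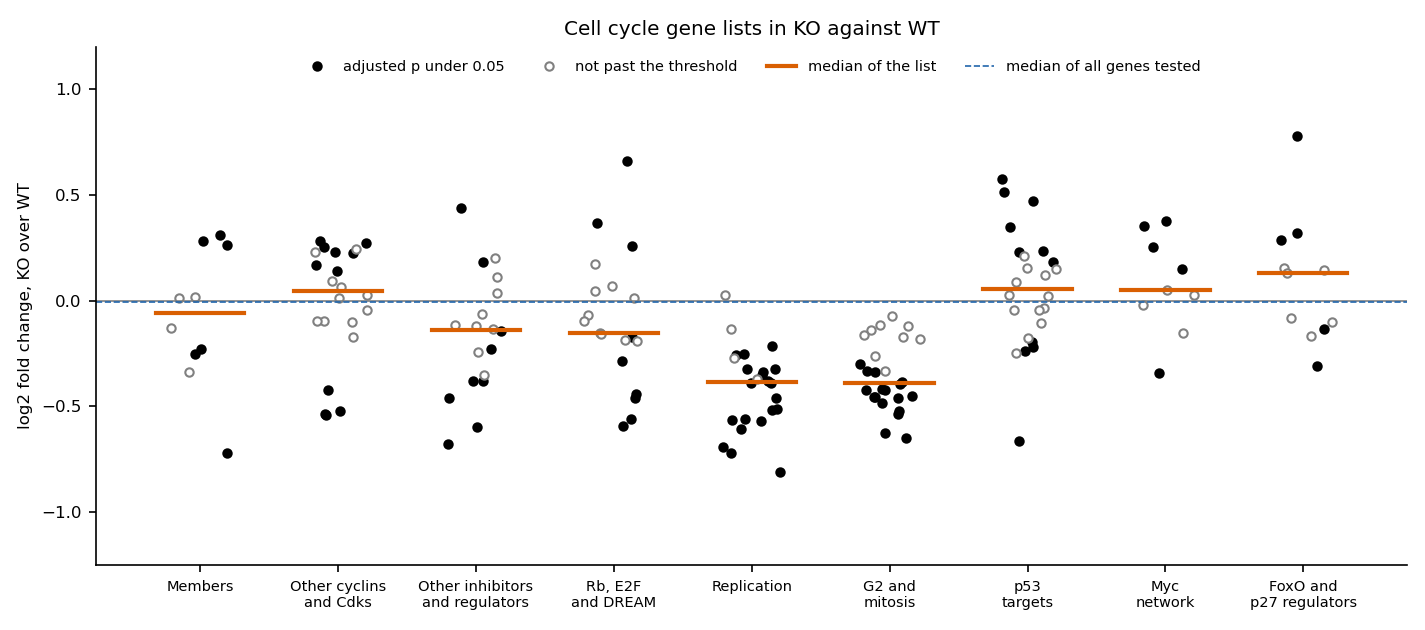
Log2 fold change (KO over WT) of each tested gene in 9 lists, with filled points for an adjusted p under 0.05, open points for the rest, a bar for the median of each list and a dashed line for the median of all tested genes. The replication and mitosis lists hold no gene called higher, while the members lie on both sides of 0.

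The retinoblastoma family and its partners went both ways. Of 19 tested genes, 3 rose (15.8%) and 6 fell (31.6%), against 20.3% and 19.4% of all tested genes. The median log2 fold change was -0.15. With the correction 2 rose and 7 fell, and the median was -0.08. Rb1, the retinoblastoma protein gene that Cdk4 and Cdk6 act on, stood at 15.9, 15.7 and 16.4 FPKM in KO and at 9.49, 10.3 and 9.40 FPKM in WT. It rose 1.58-fold (log2 fold change 0.66 ± 0.05, edgeR, adjusted p = 1.93e-06) and remained higher with the correction, at 0.49 (adjusted p = 8.66e-06). Rbl2, which encodes the related protein p130 of resting cells, rose 1.29-fold, and Foxm1, a factor that drives mitotic genes, fell 1.36-fold. The adjusted p of these was 4.15e-05 for Rbl2 and 0.000532 for Foxm1 (edgeR).

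Of 22 other cyclins and cyclin-dependent kinases tested, 7 rose (31.8%) and 4 fell (18.2%), against 20.3% and 19.4% of all tested genes. The median log2 fold change was 0.05. The falls were those of the mitotic genes Ccnb1, Ccnb2, Ccnf and Cdk1, of which Ccnb1, Ccnb2 and Cdk1 are also in the mitosis list. Ccnb1 fell 1.43-fold, to 4.10 ± 0.495 FPKM in KO, against 5.67 ± 0.305 FPKM in WT (SD, n = 3 each; edgeR, adjusted p = 0.000966). Ccng1, a p53 target with no known role as an activator of the cycle, rose to 88.3 ± 2.69 FPKM in KO, against 72.4 ± 1.43 FPKM in WT. Ccnt1, whose protein acts in transcription with Cdk9, rose 1.22-fold, a call that ended with the correction (adjusted p = 0.178), and with it 2 genes of the list rose and 4 fell, and the median was 0.003.

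Of 18 other inhibitors and regulators, 2 rose (11.1%) and 7 fell (38.9%), against 20.3% and 19.4% of all tested genes. The median log2 fold change was -0.14. With the correction 3 rose and 6 fell, and the median was -0.09. Cdkn2a, the locus of the INK4 inhibitor p16 and of the p53 activator p19ARF, fell 1.6-fold, to 5.41, 6.97 and 5.19 FPKM in KO, against 9.18, 9.03 and 8.87 FPKM in WT (edgeR, adjusted p = 0.00120). Its longest transcript, at 895 bases, is in the shortest decile. With the correction its log2 fold change went from -0.68 to -0.41 (edgeR, adjusted p = 0.0263). Cdc25b, a phosphatase that activates Cdk1, fell 1.3-fold. Fbxo4, a ubiquitin ligase subunit reported to act on cyclin D1, rose 1.36-fold, to 5.38 ± 0.117 FPKM in KO, against 3.82 ± 0.00755 FPKM in WT (SD, n = 3 each). Without WT library 1, 4 genes of the list fell.

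Targets of p53, the factor known to drive Cdkn1a, moved unevenly. Of 24 tested, 7 rose (29.2%) and 4 fell (16.7%), against 20.3% and 19.4% of all tested genes. The median log2 fold change was 0.06. With the correction 7 rose and 2 fell, with a median of 0.10. Trp53inp1 rose 1.49-fold and Zmat3 1.27-fold, whereas Ddit4, an inhibitor of mTOR signalling, fell 1.58-fold, to 9.57 ± 0.317 FPKM in KO, against 14.6 ± 0.5 FPKM in WT (SD, n = 3 each). The adjusted p was 1.4e-05 for Trp53inp1, 9.63e-05 for Zmat3 and 2.43e-05 for Ddit4 (edgeR).

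In the Myc network, 4 of 9 tested genes rose (44.4%) and 1 fell (11.1%), against 20.3% and 19.4% of all tested genes. The median log2 fold change was 0.05. With the correction 3 rose and 1 fell, and the median was 0.01. The tested gene that fell was Myc itself, at 9.42 FPKM in KO and 11.5 FPKM in WT on average (log2 fold change -0.34, edgeR, adjusted p = 0.00179). Mycn, Mxd3 and Mycl were below the filter and not tested. Mycn was at 0 in all KO libraries and averaged 0.426 FPKM in WT. Mxd3 averaged 0.334 FPKM in KO and 0.531 FPKM in WT, without overlap. Mycl averaged 0.126 FPKM in KO and 0.069 FPKM in WT, with overlap. With no filter, 3 genes of the list rose and 2 fell. Mxd4, which competes with Myc for Max, rose 1.28-fold, to 24.9 ± 0.508 FPKM in KO, against 18.7 ± 0.454 FPKM in WT (SD, n = 3 each). Mlxip rose 1.19-fold and Mga 1.3-fold, and the call of Mga ended with the correction (log2 fold change 0.01, adjusted p = 0.829). The Cdk4 stretch shown above held 4 E-boxes, and the Cdk6 stretch of 89 bases, not shown, held 1. The Cdk6 stretch lies inside the gene, with another annotated start further out, so it is not matched to the Cdk4 stretch. Whether Myc bears on either gene was not tested.

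Among FoxO factors and genes that bear on p27, 3 of 11 rose (27.3%) and 2 fell (18.2%). Of all tested genes, 20.3% rose and 19.4% fell. The median log2 fold change of the list was 0.13. With the correction 3 rose and 2 fell, but the median turned to -0.03. Foxo3, a factor known to induce Cdkn1b, rose (log2 fold change 0.32), to 26.1 ± 0.432 FPKM in KO, against 20.1 ± 0.744 FPKM in WT (SD, n = 3 each). Cops5, a signalosome subunit reported to promote the loss of p27, fell 1.24-fold. The other fall, that of Akt2, was not called without KO library 1, KO library 3, WT library 1 or WT library 3.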

How the data were processed

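RNA was measured by polyA-selected, strand-preserving sequencing of 3 KO and 3 WT libraries. The authors deposited FPKM and estimated counts per gene in 1 table, and the tools listed are StringTie 1.3.4d, HISAT2 2.0.4 and cutadapt 1.9, per the submitters' processing notes. The genome build, the annotation and the use of strand in counting are not given in the sources used here. The deposited estimated counts, rounded to whole numbers, were tested with the edgeR 4.0.16 quasi-likelihood test (R 4.3.3) after TMM scaling, keeping genes whose mean over the 6 libraries reached 1 FPKM. The pathway and marker lists, like the members, were chosen with earlier results of these data known. List genes were named by a fixed rule, the 3 tested genes of each list with the lowest p, and other genes were named after their values were seen. A gene that this rule names is not reported here. Alternatives used limma 3.58.1, DESeq2 1.42.0, other filters and scalings, a correction for length and GC content, a replicate block and leaving out each library. The procedure was tested on simulated data. Low estimated counts peaked at 4, so about 4 counts stand for 1 fragment, and precision is lower than the totals imply. Gene positions were matched by identifier to GENCODE M21.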

Additional observations from a re-analysis of the deposited data

How the results depend on the processing

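Of 158 values of the members' log2 fold changes under the alternatives, 146 kept their direction and their side of the threshold, and leaving out any 1 library kept 3 members higher and 3 lower. Ccnd1 lost its call in limma on log2(FPKM + 0.1) at -0.17 (adjusted p = 0.0645) and with no filter in edgeR at -0.21 (adjusted p = 0.0579). The log2 fold change of Ccnd3, near 0, turned to -0.002 without KO library 1 and ran up to 0.04 when other single libraries were left out. The count of pathway genes that fell was 58 of 148, and 33 of 81 with a minimum mean of 5 FPKM, where fewer genes were tested. In estimated counts, which are not divided by length, the KO minus WT difference in share was 7.39 percentage points for Ccnd2, -9.45 for Cdk4 and 9.45 for Cdk6, and that of the ratio of the inhibitors to Cdk4 and Cdk6 was 0.0798. Deviations from the group mean correlated at 0.023, 0.187 and -0.0379 between same-numbered libraries. Differently numbered libraries ran from -0.172 to 0.164. With 3 libraries per genotype these values cannot decide whether the numbers mark a pairing. With the replicate block, 3 members were higher and 3 lower, and 2407 genes were higher and 2294 lower among all genes, against 2364 and 2253 without it. The members of low level, Ccne1 and Ccne2, rest on the fewest fragments.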
